A study of Mus musculus with 12 samples.

Results

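The genes described here are 9 transcripts that mark mouse mast cells: the granule proteases Cpa3, Mcpt4, Cma1, Tpsb2 and Tpsab1, the receptor chains Fcer1a, Ms4a2 and Kit, and the histamine-forming enzyme Hdc. They were found by gene symbol among the 17875 genes of the deposited tables, where 8 of the 9 had a row. Tpsab1, which RefSeq lists as a transcribed pseudogene at 17:25343245-25345562 of GRCm38.p6, was not analysed here. RNA was sequenced from subcutaneous colorectal tumours of mice in 12 libraries, 3 in each of 4 groups. Stress tumours came from tumour-bearing mice under chronic stress, low-dose and high-dose tumours from tumour-bearing mice under chronic stress that also received a low or a high dose of Xiaochaihu decoction, a multi-herb preparation of Chinese medicine, and control tumours from mice with a tumour and no stress. All 4 groups thus carried a tumour, and all decoction groups were stressed. The dose in numbers, the tumour cell line, the strain and the age are not given in the sources used here, and neither is whether replicates were separate animals. The p-values therefore describe the spread between 3 libraries a group, which can be partly technical.

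Mast cells are tissue-resident cells of the myeloid lineage that mature under the receptor tyrosine kinase KIT and its ligand, the product of Kitl. They store proteases bound to serglycin, together with histamine, in granules that they release when antigen cross-links IgE on their high-affinity receptor. In rodents a connective tissue type, found in skin and around vessels, carries chymases and tryptases such as Mcpt4, Cma1 and Tpsb2 with the carboxypeptidase Cpa3, while a mucosal type carries Mcpt1 and Mcpt2. Mast cells are also found in many tumours.

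Promoters are shown for 4 genes that were high in the same libraries and for Kit, which was not. The sequences are the 250 bases before a transcript start in RefSeq (GRCm38.p6), written from 5′ to 3′ along the strand of the gene. For Cpa3, Fcer1a, Ms4a2 and Hdc this start lies inside the span of the gene given below, so the window overlaps the gene. The table held 7 of the 8 genes, all but Tpsb2. Capitals mark a GATA motif, the letters GATA after an A or a T and before an A or a G, on either strand, which GATA factors such as the mast cell regulator GATA2 can bind.
Cpa3 (chr3:20242182-20242431, minus strand): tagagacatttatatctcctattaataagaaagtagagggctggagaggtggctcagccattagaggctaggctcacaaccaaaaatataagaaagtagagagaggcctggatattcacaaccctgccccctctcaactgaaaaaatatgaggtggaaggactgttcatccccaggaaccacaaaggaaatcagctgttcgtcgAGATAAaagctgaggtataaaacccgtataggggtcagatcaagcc
Mcpt4 (chr14:56062311-56062560, minus strand): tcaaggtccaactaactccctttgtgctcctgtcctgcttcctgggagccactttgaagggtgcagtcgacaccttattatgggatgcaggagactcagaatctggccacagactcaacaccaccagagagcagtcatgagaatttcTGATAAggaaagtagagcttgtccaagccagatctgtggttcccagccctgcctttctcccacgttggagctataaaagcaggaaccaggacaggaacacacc
Cma1 (chr14:55944676-55944925, minus strand): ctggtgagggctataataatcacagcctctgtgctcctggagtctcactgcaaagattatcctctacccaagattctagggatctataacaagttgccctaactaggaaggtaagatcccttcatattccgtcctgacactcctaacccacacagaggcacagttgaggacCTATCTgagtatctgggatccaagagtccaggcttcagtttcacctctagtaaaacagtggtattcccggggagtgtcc
Fcer1a (chr1:173227230-173227479, minus strand): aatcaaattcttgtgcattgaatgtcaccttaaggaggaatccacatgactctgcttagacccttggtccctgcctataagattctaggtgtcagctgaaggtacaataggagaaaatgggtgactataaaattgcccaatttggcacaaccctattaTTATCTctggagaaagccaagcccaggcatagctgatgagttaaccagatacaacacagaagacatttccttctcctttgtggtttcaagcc
Kit (chr5:75574737-75574986, plus strand): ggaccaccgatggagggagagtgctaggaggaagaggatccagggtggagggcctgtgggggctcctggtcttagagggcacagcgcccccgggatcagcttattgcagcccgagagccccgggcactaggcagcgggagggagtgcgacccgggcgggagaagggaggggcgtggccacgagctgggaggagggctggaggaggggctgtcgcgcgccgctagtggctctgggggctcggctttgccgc
The motif began 46 bases before that transcript start in Cpa3, 103 in Mcpt4, 79 in Cma1 and 92 in Fcer1a. It occurred 3 times in the window of Ms4a2 and 1 time in that of Hdc, which lies wholly within the span of its gene, and its letters were not in the window of Kit. Of 27025 promoters of the same length, 7322 (27.1%) held it. These matches describe letters in the window and do not show binding.

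The total count ran from 16734741 to 17950195 per library. Pairs of libraries of a group differed by more than counting noise. Skeletal muscle markers, summed over 8 genes, reached 198 TPM or more in control replicate 1, low-dose replicate 3 and high-dose replicate 2 and at most 43.0 TPM in the other libraries. Of 8 colorectal epithelial markers, Cdx2 was not analysed here and the other 7 summed to 2.43 to 8.23 TPM, with Krt18 above 0 in 1 library of 12 and Epcam at 0.84 TPM or less. Among these markers Cdh1 was the most abundant, at 1.71 to 6.46 TPM, and Krt8, Krt18, Krt20 and Vil1 were at or near 0. Levels below are deposited TPM, which are scaled by gene length, and counts are deposited read counts per gene. The ratio of TPM to counts differed between libraries and was low in low-dose replicate 2, so the scales can order libraries differently. Kit was at 0.74 TPM from 44 counts there and at 0.76 TPM from 39 counts in low-dose replicate 3. Srgn was at 89.44 TPM from 944 counts in low-dose replicate 2 and at 110.05 TPM from 877 counts in control replicate 1.

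Mast cell transcripts were scarce in all 4 groups. By the median over the 12 libraries the levels ran from Tpsb2 at 1.56 TPM, Kit at 1.45, Cma1 at 0.835, Hdc at 0.59, Mcpt4 at 0.58, Cpa3 at 0.425 and Fcer1a at 0.135 to Ms4a2 at 0. Neighbours in this order were not separated by library, apart from Cpa3, which exceeded Fcer1a in 12 of 12 libraries. Tpsb2 exceeded Kit in 6 of 12 libraries, Kit exceeded Cma1 in 8, Cma1 exceeded Hdc in 9, Hdc exceeded Mcpt4 in 6, Mcpt4 exceeded Cpa3 in 7 and Fcer1a exceeded Ms4a2 in 7. In bulk tissue, fewer cells of a type and less RNA per cell cannot be told apart.

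The granule protease transcripts were high in 2 of the 12 libraries, stress replicate 3 and high-dose replicate 1. Summed over Cpa3, Mcpt4, Cma1 and Tpsb2, the level was 6.52, 1.49 and 38.89 TPM in stress tumours, 2.78, 3.47 and 3.13 TPM in low-dose tumours, 26.38, 1.86 and 5.12 TPM in high-dose tumours, and 1.9, 1.72 and 4.02 TPM in control tumours. These 2 libraries held 554 of the 826 counts of the 4 genes, or 67.1%. The next library, stress replicate 1, stood at 6.52 TPM from 56 counts, and the lowest, stress replicate 2, at 1.49 TPM from 12 counts. The highest and the lowest of the 12 sums were thus in the same group. The skin keratins Krt5 and Krt15 were detected in stress replicate 3, at 98 and 11 counts. They were at 0 in the other 11 libraries, high-dose replicate 1 included. Krt14, a further skin keratin, was at 234 to 481 TPM in the 11 libraries where Krt5 was at 0. It was lowest in stress replicate 3, at 218 TPM, so its level did not follow that of Krt5 and Krt15. The part of skin in the protease level was not tested.

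**Figure D1:**
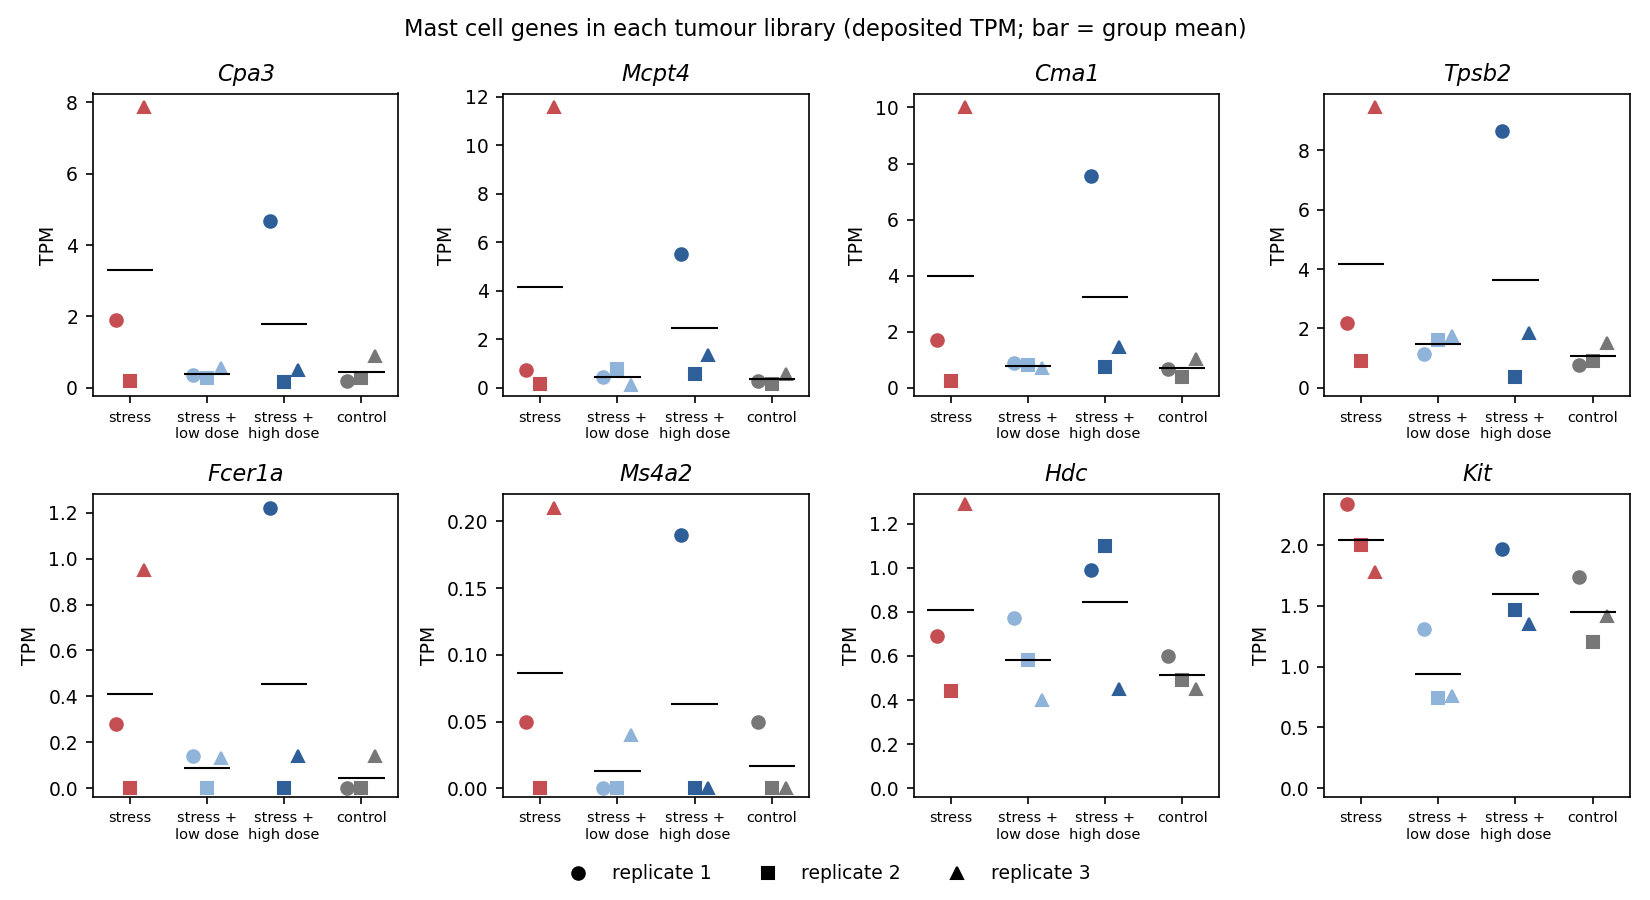
Deposited TPM of the 8 mast cell genes in each library, with the groups along the horizontal axis, 1 symbol per replicate and a line at the group mean. The 4 proteases, Fcer1a and Ms4a2 stand highest in stress replicate 3 and high-dose replicate 1, while Kit has its 2 lowest values, 0.74 and 0.76 TPM, in low-dose tumours.

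Cpa3 encodes carboxypeptidase A3, a granule exopeptidase, and lies at chr3:20215616-20242209. It was at 1.89, 0.18 and 7.86 TPM in stress tumours, at 0.35, 0.28 and 0.55 TPM in low-dose tumours, at 4.68, 0.17 and 0.5 TPM in high-dose tumours, and at 0.18, 0.27 and 0.89 TPM in control tumours. Group means were 3.31 ± 4.03 TPM in stress, 0.393 ± 0.140 TPM in low-dose, 1.78 ± 2.51 TPM in high-dose and 0.447 ± 0.387 TPM in control tumours (SD, n = 3 each). Stress replicate 3 and high-dose replicate 1 lay above all 10 other libraries, and the ranges of the 4 groups overlapped. Behind these levels were 91 counts in stress replicate 3 (95% Poisson interval 73.3 to 112) and 53 in high-dose replicate 1 (39.7 to 69.3), against 2 (0.242 to 7.22) in stress replicate 2, high-dose replicate 2 and control replicate 1. Such intervals cover counting error only. The gap between the libraries within the stress group was therefore wider than counting error.

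Mcpt4 encodes mast cell protease 4, the chymase held to be the functional counterpart of human chymase, at chr14:56059744-56062310. Its levels were 0.75, 0.15 and 11.56 TPM in stress tumours, 0.43, 0.79 and 0.13 TPM in low-dose tumours, 5.5, 0.57 and 1.34 TPM in high-dose tumours, and 0.3, 0.15 and 0.59 TPM in control tumours. Stress replicate 3 held 92.9% of the Mcpt4 of its group and high-dose replicate 1 held 74.6%, on the scale of CPM, counts divided by library size. Of all 157 Mcpt4 counts, 120 came from these 2 libraries. High-dose replicate 3 came next at 9 counts, and the ranges of all groups overlapped.

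Cma1, the alpha-chymase mast cell protease 5 at chr14:55941451-55944675, was also highest in these 2 libraries, with stress replicate 1 next. It was at 1.7, 0.26 and 10.01 TPM in stress tumours, at 0.87, 0.8 and 0.7 TPM in low-dose tumours, at 7.54, 0.75 and 1.44 TPM in high-dose tumours, and at 0.66, 0.39 and 1.03 TPM in control tumours. Tpsb2, the tryptase mast cell protease 6 at chr17:25366308-25368096, was at 2.18, 0.9 and 9.46 TPM in stress tumours, at 1.13, 1.6 and 1.75 TPM in low-dose tumours, at 8.66, 0.37 and 1.84 TPM in high-dose tumours, and at 0.76, 0.91 and 1.51 TPM in control tumours. The 3 low-dose libraries lay close together for both genes, at 0.79 ± 0.0854 TPM for Cma1 and 1.49 ± 0.323 TPM for Tpsb2 (SD, n = 3). These levels rest on 6 to 8 counts per library for Cma1 and 9 to 16 for Tpsb2. Counting error at such counts is wide, so the closeness does not measure how alike the tumours were. Stress tumours spread far more, at 3.99 ± 5.26 TPM for Cma1 and 4.18 ± 4.62 TPM for Tpsb2 (SD, n = 3). Stress replicate 3 held 83.7% of the Cma1 and 75.6% of the Tpsb2 of that group in CPM.

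The make-up of the protease transcripts also differed between libraries. Tpsb2 was the highest of the 4 in 10 of 12 libraries. Mcpt4 was the highest in stress replicate 3, with 29.7% of the summed TPM, and held 20.8% in high-dose replicate 1. In the other libraries Mcpt4 held 4.15% to 30.6%, on 1 to 9 counts each, so its share there was poorly determined. Parts of these genes resemble relatives: the Mcpt4 transcript aligned to that of Mcpt1 with 86.7% identity, to Mcpt2 with 82.5% and to Mcpt9 with 85.3%, and Tpsb2 to Tpsab1 with 81.6% over 401 bases. The longest identical run was 56 bases, against reads of 150 bases, but how the authors treated reads shared by related genes is not given in the sources used here. The split between these relatives is therefore uncertain.

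Fcer1a and Ms4a2 encode the alpha and beta chains of the high-affinity IgE receptor, the alpha chain binding IgE and the beta chain amplifying the signal. Both were near the limit of detection. Fcer1a, at chr1:173221269-173227232, had 2, 0 and 7 counts in stress tumours, 1, 0 and 1 in low-dose tumours, 9, 0 and 1 in high-dose tumours, and 0, 0 and 1 in control tumours. Ms4a2, at chr19:11615517-11623790, had 1, 0 and 5 counts in stress tumours, 0, 0 and 1 in low-dose tumours, 4, 0 and 0 in high-dose tumours, and 1, 0 and 0 in control tumours. Stress replicate 3 and high-dose replicate 1 held 16 of the 22 Fcer1a counts and 9 of the 12 Ms4a2 counts. Fcer1a was at 0 in 5 libraries and Ms4a2 in 7, where a count of 0 still allows up to 3 counts as a one-sided limit. No fold is given for either gene, since neither passed the filter on low counts.

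Kit, the receptor for stem cell factor that mast cells need to survive, lies at chr5:75574987-75656722 and had more counts than any other of these genes, 866 in all. Its levels were 2.34, 2 and 1.78 TPM in stress tumours, 1.31, 0.74 and 0.76 TPM in low-dose tumours, 1.97, 1.47 and 1.35 TPM in high-dose tumours, and 1.74, 1.2 and 1.42 TPM in control tumours. The group means were 2.04 ± 0.282 TPM in stress, 0.937 ± 0.323 TPM in low-dose, 1.60 ± 0.329 TPM in high-dose and 1.45 ± 0.272 TPM in control tumours (SD, n = 3 each). Stress replicate 3, the library with the most protease transcript, had the lowest Kit of its group. Stress replicate 2, with the least, had 94 Kit counts beside 12 protease counts. In TPM, each low-dose library was below each stress library and each high-dose library, and each stress library was above each control library. In counts the low-dose and high-dose groups overlapped, with 63 in low-dose replicate 1 and 62 in high-dose replicate 3. The low-dose and control ranges overlapped, as did the high-dose range with those of stress and control tumours. Kit is also made by melanocytes, interstitial cells of Cajal and blood progenitors. The melanocyte markers Dct, Tyr, Pmel and Sox10 summed to 0.3 to 0.66 TPM with Dct above 0 in 1 library. Of 5 markers of interstitial cells of Cajal, the chloride channel Ano1 was at 45.0 to 93.3 TPM and Cd34, which progenitor and vessel cells share, at 661 to 1007 TPM. The others were lower, Etv1 at 6.13 to 19.93 TPM, Thbs4 at 0.94 to 21.84 TPM and Prkcq at 0.5 to 2.48 TPM. The part of such cells in the Kit level was not tested.

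Hdc, histidine decarboxylase at chr2:126593659-126624025, makes histamine and is also made by basophils and other myeloid cells. It was at 0.69, 0.44 and 1.29 TPM in stress tumours, at 0.77, 0.58 and 0.4 TPM in low-dose tumours, at 0.99, 1.1 and 0.45 TPM in high-dose tumours, and at 0.6, 0.49 and 0.45 TPM in control tumours. The groups overlapped, and the spread of Hdc was far narrower than that of the proteases: 48 of its 174 counts (27.6%) came from stress replicate 3 and high-dose replicate 1, against 70.9% for Cpa3. High-dose replicate 2 had 23 Hdc counts, between the 27 of stress replicate 3 and the 21 of high-dose replicate 1, and 15 protease counts.

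Across the 12 libraries the log2 CPM of the other genes was compared with that of Cpa3 as a description. Pearson's r was 0.957 for Fcer1a, 0.941 for Cma1, 0.93 for Tpsb2, 0.872 for Ms4a2 and 0.868 for Mcpt4, but 0.542 for Hdc and 0.411 for Kit. These points share the 2 protease-rich libraries, and over the other 10 r was 0.881 for Fcer1a, 0.727 for Cma1, 0.728 for Tpsb2, 0.374 for Ms4a2, 0.356 for Mcpt4, -0.147 for Hdc and 0.206 for Kit. Counts of Fcer1a, Ms4a2 and Mcpt4 outside those 2 libraries were 0 to 9, too few to follow a relation. Those of Fcer1a were 0 to 2, so its r of 0.881 rests on single reads. Among the genes that are not on the list, the 8 nearest to Cpa3 by r over the 12 libraries were Rgl1 (0.902), P3h2 (0.855), Dach1 (0.84), Ptchd1 (0.827), Arhgap28 (0.825), Sdccag8 (0.824), Gm33887 (0.823) and Efna5 (0.823). They were picked as the highest of all genes tested, so the height of r partly reflects that choice. Spearman's rho ran from 0.517 for Rgl1 to 0.811 for Gm33887. Without the 2 libraries r ranged from 0.33 for P3h2 to 0.765 for Gm33887, and it was lower for each of the 8.

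Each pair of groups was then compared with edgeR's quasi-likelihood test over all 13453 genes that passed the filter on low counts, with p-values adjusted by the Benjamini-Hochberg method. Of the 8 genes, 5 passed the filter (Cpa3, Cma1, Tpsb2, Hdc and Kit). Cma1 had at most 8 counts in any control or low-dose library, below the minimum count of 10. It therefore passed through stress and high-dose libraries. Cpa3 had at most 10 counts in control and 6 in low-dose libraries. The shared directions and medians of the 5 genes below are thus not independent of the filter. None of the 5 had an adjusted p under 0.05 in any of the 6 comparisons, and the share of all genes called was 0% in each. DESeq2 also called 0 of the 5, beside 95 of the 13453 genes in low-dose against stress, 54 in low-dose against control, 5 in high-dose against low-dose, 1 in stress against control, 1 in high-dose against control and 0 in high-dose against stress tumours. The stress group is shared by 3 of these comparisons and the control group by 3, so their values are not independent.

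The effect of chronic stress alone was read from stress tumours against control tumours. The log2 fold changes of the 5 genes were all above 0, with a median of 2.02 beside 0.01 over all genes tested, and none passed the test. Cpa3 differed by 2.86 (SE 1.29), Cma1 by 2.51 (SE 1.13), Tpsb2 by 2.02 (SE 1.02), Hdc by 0.66 (SE 0.479) and Kit by 0.49 (SE 0.245), each with an adjusted p of 0.9999. The unadjusted p was 0.0489 for Cpa3 and 0.0476 for Cma1, so 2 of 5 were under 0.05, where 2.85% of all genes were. Mcpt4, fitted without the filter, differed by 3.53 (SE 1.45) with an adjusted p of 1. Of the 87 Mcpt4 counts in stress tumours, 81 came from stress replicate 3, so that fold rested on 1 library. Without stress replicate 3 the log2 fold change was 1.16 for Cpa3, 0.56 for Tpsb2, 0.46 for Cma1 and 0.14 for Hdc. That of Kit stayed between 0.37 and 0.63 whichever library was left out. Kit was the gene whose groups did not overlap, each stress library being higher, as was so for 6.76% of all genes.

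The effect of the lower dose under stress was read from low-dose tumours against stress tumours. The log2 fold changes of the 5 genes were all below 0, with a median of -1.28 beside 0 over all genes tested, and none passed. Kit stood at -0.99 (SE 0.249) with an unadjusted p of 0.00174 and an adjusted p of 0.296. Cpa3 stood at -2.98 (SE 1.3), Cma1 at -2.15 (SE 1.09), Tpsb2 at -1.28 (SE 0.97) and Hdc at -0.32 (SE 0.469), with adjusted p-values of 0.363 to 0.777. Kit and Cpa3 had an unadjusted p under 0.05, as did 13.4% of all genes. Kit was the gene with non-overlapping groups, lower in low-dose tumours as were 10.7% of all genes. Without stress replicate 3 the values were -1.27 for Cpa3, -0.09 for Cma1, 0.20 for Tpsb2 and 0.21 for Hdc. For Kit they ran from -1.19 to -0.88 over the 12 libraries left out in turn. Without low-dose replicate 1, the low-dose library with the most Kit, the adjusted p of Kit was 0.0269, in a fit that called 1243 of 13637 genes, and DESeq2 on all libraries gave 0.0524.

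High-dose and stress tumours each held 1 protease-rich library. The log2 fold changes of high-dose against stress tumours were -0.95 (SE 1.13) for Cpa3, -0.31 (SE 0.98) for Cma1, -0.20 (SE 0.92) for Tpsb2, 0.07 (SE 0.46) for Hdc and -0.35 (SE 0.244) for Kit, with adjusted p-values of 0.9998. None of the 5 had an unadjusted p under 0.05, where 1.43% of all genes did, and all groups overlapped, where 5.49% of all genes had groups apart. The direction of the proteases depended on which of these 2 libraries was in the fit. Cpa3 stood at -3.37 without high-dose replicate 1 and at 0.75 without stress replicate 3, Cma1 at -1.86 and 1.74 in the same order, and Tpsb2 at -1.87 and 1.28. Kit stayed between -0.52 and -0.23.

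**Figure D2:**
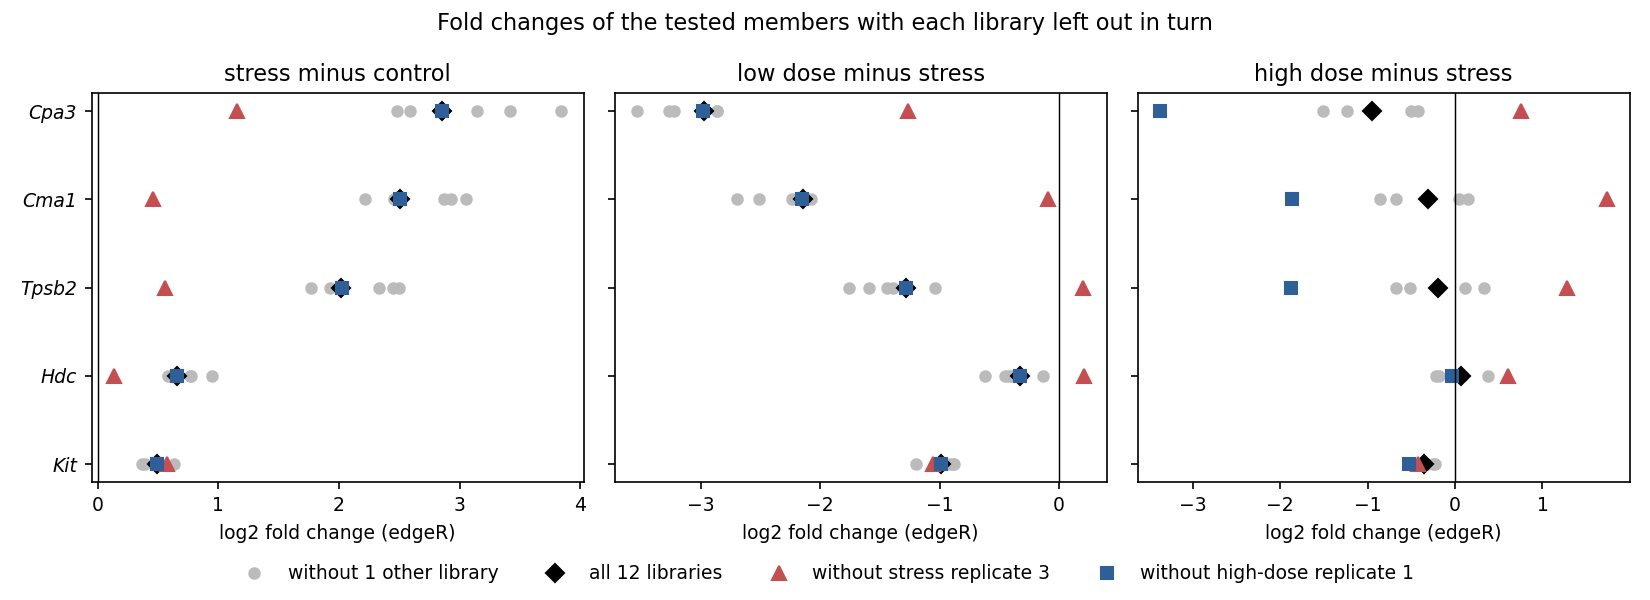
Log2 fold changes (edgeR) of the 5 genes tested in stress against control, low-dose against stress and high-dose against stress tumours, with all 12 libraries (diamonds) and with each library left out in turn. Red triangles, the fits without stress replicate 3, lie far from the diamonds for the proteases. Blue squares, the fits without high-dose replicate 1, do so in high-dose against stress tumours, the comparison shown that holds the high-dose group. Both lie close to the diamonds for Kit.

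Between the doses, high-dose against low-dose tumours, the 5 log2 fold changes were all above 0, with a median of 1.08, and none passed. Kit stood at 0.64 (SE 0.249), with an unadjusted p of 0.0247 and an adjusted p of 0.757. It was the 1 gene of 5 under 0.05 before adjustment, where 6.4% of all genes were. Its groups did not overlap in TPM, high-dose being higher, as was so for 8.2% of all genes. The nearest libraries were high-dose replicate 3, at 1.35 TPM from 62 counts, and low-dose replicate 1, at 1.31 TPM from 63 counts. In counts these groups therefore overlapped. Cpa3 stood at 2.02 (SE 1.32), Cma1 at 1.84 (SE 1.10) and Tpsb2 at 1.08 (SE 0.97). Without high-dose replicate 1 these became -0.39 for Cpa3, 0.29 for Cma1 and -0.59 for Tpsb2, and 0.47 for Kit.

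Each dose was also set against control tumours. In low-dose tumours Cpa3 stood at -0.12 (SE 1.49), Cma1 at 0.36 (SE 1.24), Tpsb2 at 0.74 (SE 1.06), Hdc at 0.33 (SE 0.486) and Kit at -0.50 (SE 0.25), with adjusted p-values of 0.406 to 0.976. None had an unadjusted p under 0.05, where 13.2% of all genes did, and all groups overlapped, where 19.4% of all genes had groups apart. The standard errors of the proteases were over 1 on the log2 scale, so differences of that size were not detectable with these libraries. High-dose tumours against control tumours stood at 1.9 (SE 1.31) for Cpa3, 2.19 (SE 1.13) for Cma1, 1.82 (SE 1.03) for Tpsb2, 0.73 (SE 0.477) for Hdc and 0.14 (SE 0.246) for Kit, with adjusted p-values of 0.9999. Again none was under 0.05 before adjustment, beside 1.04% of all genes, and all groups overlapped, beside 8.43%. Without high-dose replicate 1 the values were -0.52 for Cpa3, 0.64 for Cma1, 0.15 for Tpsb2 and -0.03 for Kit.

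**Figure D3:**
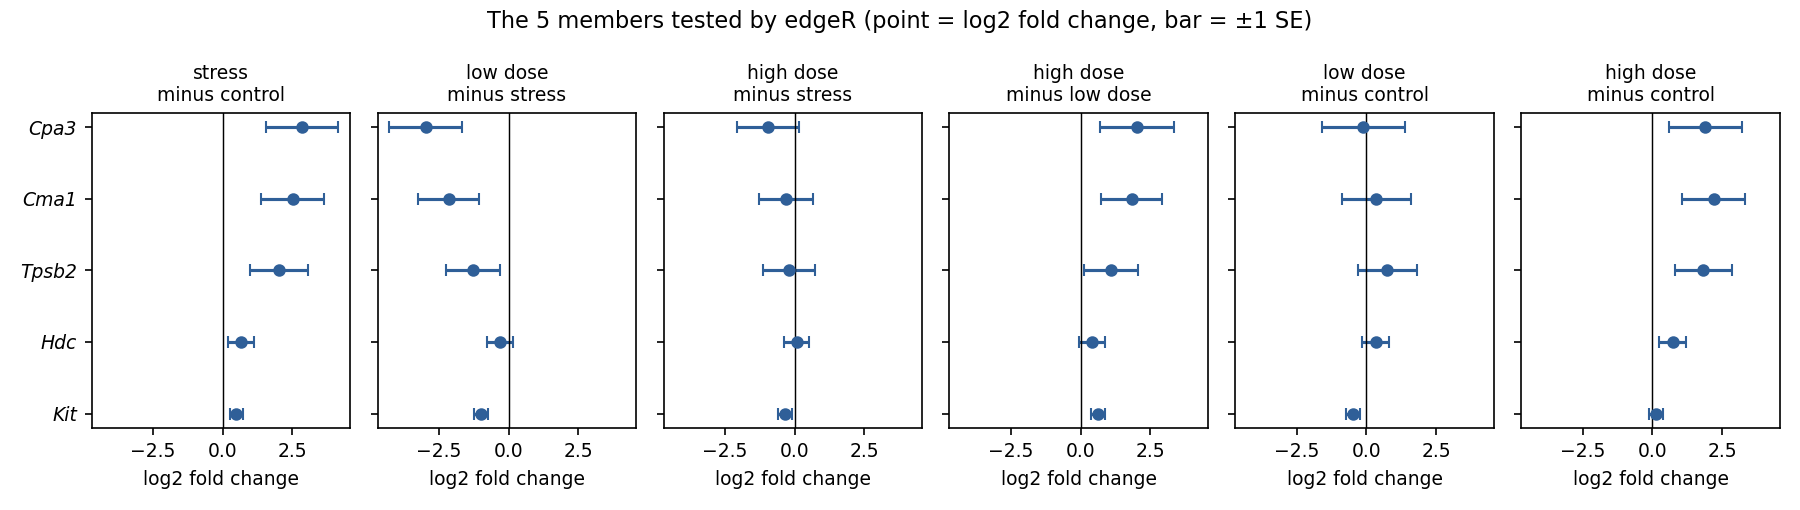
Log2 fold changes (edgeR) of the 5 genes tested in the 6 comparisons, with bars of 1 SE to each side. The proteases Cpa3, Cma1 and Tpsb2 have bars of 0.92 to 1.49, those of Kit are 0.244 to 0.25, and no point passed the adjusted threshold.

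Other genes of the mast cell system were taken from 5 lists. Of 8 further granule genes, 5 were in the tables, and of the 4 tested 0 passed in any comparison. Mcpt2, a chymase-family protease of mucosal mast cells, was at 1.84, 1.21 and 2.79 TPM in stress tumours, at 0.89, 0.23 and 0.55 TPM in low-dose tumours, at 8.83, 0.15 and 0.76 TPM in high-dose tumours, and at 0.62, 1.51 and 2.12 TPM in control tumours. It was thus highest in the 2 protease-rich libraries, but higher in high-dose replicate 1 than in stress replicate 3, the reverse of the order of Mcpt4. The high-dose minus low-dose log2 fold change of Mcpt2 was 2.40 (SE 1.08, adjusted p 0.757). Mcpt1 did not exceed 0.84 TPM. Srgn, the proteoglycan core that binds granule proteases and is shared with other blood cells, was lowest of all libraries in stress replicate 3, at 48.8 TPM, against 82.2 to 237 TPM outside the 2 libraries. Its log2 fold change in low-dose against stress tumours was 0.89 (SE 0.411, adjusted p 0.376).

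Of 12 further identity genes, 9 were tested and 0 passed. The receptors Mrgprb1 and Mrgprb2 of connective tissue mast cells were sparse. Mrgprb1 was at 0.23 TPM in stress replicate 3 and 0.36 TPM in high-dose replicate 1 and at 0.08 TPM or less elsewhere. Mrgprb2, the receptor for basic secretagogues, had 8 counts in all, in stress replicates 1 and 3 and high-dose replicate 1. The other 10 genes are shared with further cell types. Hpgds, which makes prostaglandin D2, was highest in the 2 protease-rich libraries, at 4.87 TPM in stress replicate 3 and 5.39 TPM in high-dose replicate 1, beside 0.79 to 4.66 TPM in the others. Cd200r3, a receptor of basophils and mast cells, was also highest there, at 0.18 and 0.27 TPM beside 0 to 0.17 TPM, on 15 counts in all. Ltc4s, which makes leukotriene C4, was highest in high-dose replicate 1 at 35.63 TPM and stood at 21.27 TPM in stress replicate 3, beside 9.83 to 24.98 TPM. The remaining 7 (Gata2, Slc18a2, Il1rl1, Mitf, Rab27b, Tal1 and Maob) lay within the range of the other libraries in both, with Gata2 at 7.86 and 7.18 TPM beside 4.87 to 7.92 TPM. Tal1, a blood lineage regulator, had the smallest p of this list, with a low-dose minus control log2 fold change of -1.13 (SE 0.29, adjusted p 0.316). Hpgds stood at -1.17 (SE 0.409, adjusted p 0.314) in low-dose against stress tumours.

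All 13 genes of IgE receptor signalling were tested and 0 passed. The smallest p-values belonged to the kinase Syk, at -0.26 (SE 0.116, adjusted p 0.367) in low-dose against stress tumours, and the phospholipase Plcg1, at -0.23 (SE 0.132, adjusted p 0.463) in low-dose against control tumours. These genes serve many immune cells: Fcer1g, the common gamma chain, was at 134 to 234 TPM, far above Fcer1a. Of 15 genes of histamine and lipid mediators, 9 were tested and 0 passed. Alox5ap, which hands arachidonic acid to 5-lipoxygenase, stood at 0.63 (SE 0.169, adjusted p 0.316) in low-dose against control tumours, and Ptgs1, a prostaglandin synthase, at 0.55 (SE 0.189, adjusted p 0.313) in low-dose against stress tumours.

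Of 13 ligands and growth factors, 6 of the 10 in the tables were tested and 0 passed. Kitl, named after its values were seen, encodes the ligand of KIT. It was at 27.61, 16.69 and 49.61 TPM in stress tumours, at 25, 15.12 and 7.91 TPM in low-dose tumours, at 32.67, 15.06 and 20.5 TPM in high-dose tumours, and at 19.08, 12.72 and 15.45 TPM in control tumours. Its highest and second highest levels were in stress replicate 3 and high-dose replicate 1, and the ranges of the groups overlapped. The log2 fold change was 1.0 (SE 0.449, unadjusted p 0.0491, adjusted p 0.9999) in stress against control tumours and -0.84 (SE 0.447, adjusted p 0.42) in low-dose against stress tumours. Against the summed proteases, on the log2 scale of TPM, Pearson's r was 0.759 and Spearman's rho 0.671 over 12 libraries, and r was 0.339 over the 10 without the 2 protease-rich libraries, so the relation rested on those 2. Il33, an alarmin that activates mast cells, was at 3.33, 3.76 and 11.01 TPM in low-dose tumours and at 1.72, 0.14 and 1.08 TPM in stress tumours. The log2 fold change was 2.79 (SE 0.833, adjusted p 0.296). Il3ra, a chain of the interleukin-3 receptor, stood at 0.51 (SE 0.219, adjusted p 0.358) in the same comparison.

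**Figure D4:**
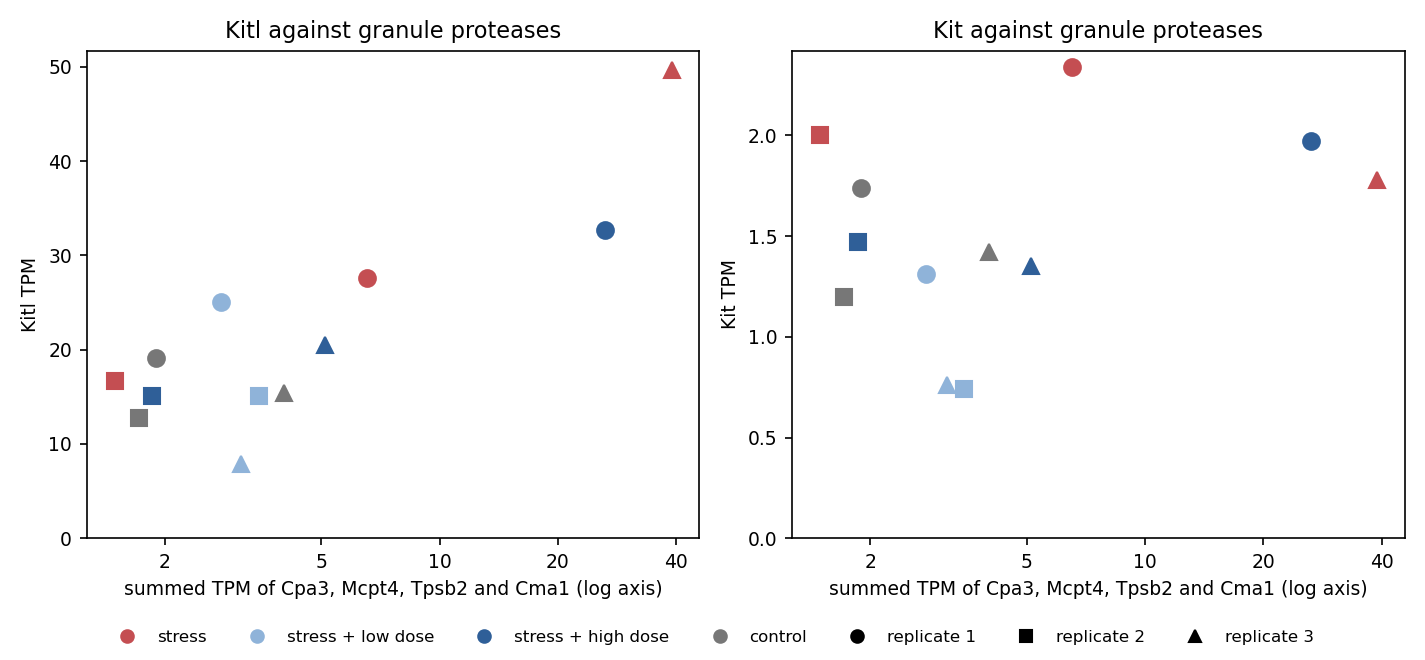
Kitl (left) and Kit (right) in TPM against the summed TPM of Cpa3, Mcpt4, Tpsb2 and Cma1 on a log axis, 1 point per library, coloured by group and shaped by replicate. Stress replicate 3 and high-dose replicate 1 lie furthest right in both panels, with the highest Kitl levels (49.61 and 32.67 TPM) and with Kit levels of 1.78 and 1.97 TPM inside the range of the other libraries.

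Markers of other cells were read beside the proteases in stress replicate 3 and high-dose replicate 1. The 4 basophil markers in the tables summed to 0.89 and 1.03 TPM there and to 0.36 to 1.35 TPM in the other libraries, with the basophil protease Mcpt8 at 0.38 TPM or less and Prss34 at 0 in 10 of 12 libraries. The 8 skin epithelium markers summed to 227 and 249 TPM, beside 238 to 484 TPM in the others, of which Krt14 made up 218 and 245 TPM. Krt5 and Krt15 stood at 5.15 and 0.77 TPM in stress replicate 3 and at 0 in the other 11 libraries. The 5 markers of interstitial cells of Cajal summed to 1078 and 977 TPM, above the 779 to 946 TPM of the others, mostly from Cd34, which progenitor and vessel cells share, at 1007 and 905 TPM beside 661 to 862 TPM. The 7 colorectal epithelial markers summed to 2.43 and 3.74 TPM, beside 3.66 to 8.23 TPM, and the 4 melanocyte markers to 0.56 and 0.3 TPM, beside 0.34 to 0.66 TPM. The 8 fibroblast markers summed to 5055 and 6616 TPM, beside 1650 to 7195 TPM. Skeletal muscle markers were at 4.38 and 6.05 TPM in these 2 libraries, beside 3.7 to 543 TPM, macrophage markers at 2024 and 4570 TPM, beside 2279 to 5241 TPM, and adipocyte markers at 110 and 94.8 TPM, beside 46.1 to 138 TPM. Fabp4 made up 108.64 and 91.15 TPM of the adipocyte sums. Adipoq was at 0.53 TPM or less in every library, and Plin1 and Lep had 1 count each in all. Neutrophil markers stood at 40.6 and 62.2 TPM, beside 26.6 to 60.6 TPM, and eosinophil markers at 3.05 and 2.91 TPM, beside 0.5 to 10.1 TPM. Mmp9 made up 27.03 and 51.46 TPM of the neutrophil sums, while Ly6g, Ngp and Camp had 1, 3 and 3 counts in all. Ear2 made up 3.02 and 2.75 TPM of the eosinophil sums. Siglecf, Ccr3, Prg2 and Epx were at 0.38 TPM or less in every library. With a score of the fibroblast markers in the model, the stress minus control log2 fold change was 1.05 for Cpa3, 0.65 for Tpsb2 and 0.95 for Cma1. With the skin score, an average of log2 CPM over 8 genes that include Krt5 and Krt15, it was 1.93 for Cpa3, 1.22 for Tpsb2 and 1.3 for Cma1, and with the muscle score 2.26, 1.48 and 1.87. Krt5 and Krt15 were above 0 only in stress replicate 3, so the skin score partly marks that protease-rich library. With each score, 0 of the 5 genes had an unadjusted edgeR p under 0.05 in this comparison. The part of these cells in the protease level was not tested. No gene of these lists passed in any comparison. The smallest p was that of Ear2, a ribonuclease from the eosinophil list, at -3.34 (SE 0.761, adjusted p 0.266) in low-dose against stress tumours. In that comparison the other genes with the smallest p of their lists were Itga2 at -1.07, Csf3r at -0.61, Fabp4 at -0.38 and Cdh1 at 0.71. In stress against control tumours they were the macrophage gene Adgre1 at 0.93, Mmp9 at 0.60, Ano1 at -0.63, Cd34 at 0.28 and the keratins Krt14 at -0.70 and Krt10 at -0.32. In low-dose against control tumours they were Lyz2 at 1.05 and the matrix proteoglycans Dcn at 1.44 and Lum at 0.83, and in high-dose against stress tumours the muscle genes Tnnt3 at 3.29 and Mylpf at 3.04 and Car3 at 2.68, all as log2 fold changes with adjusted p-values of 0.321 or more. No melanocyte marker passed the filter on low counts.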

How the data were processed

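Poly(A) RNA with an integrity number above 7 was made into stranded libraries and read from both ends at 150 bases, per the labels' protocols. Per the submitters' processing notes, cutadapt 1.9, HISAT2 2.0.4, StringTie 1.3.4d, DESeq2, edgeR and GRCm38.p6 were used; the counting options and annotation are not given in the sources used here. The deposited estimated counts per gene were not scaled by the authors, and 11.7% to 12.5% of the values of a library were not whole, so they were rounded. In the deposited TPM values the authors' scaling for length gives every library the same sum.

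Genes were kept with filterByExpr at a minimum count of 10. Quasi-likelihood tests of edgeR 4.0.16 (R 4.3.3, TMM, robust, two-sided) were run on 1 model of 12 libraries in 4 groups, with 8 residual degrees of freedom, and tested on simulated data. The simulation gave every gene the same spread (dispersion 0.038). It therefore does not show how the test handles genes as uneven as the proteases. Likeness used log2 CPM with a prior count of 2. Promoters came from RefSeq and transcripts for alignment (Biopython 1.88) from GENCODE M21. The genes, the 16 other lists and the tests were chosen with earlier results of these data known. Of each other list, genes that passed were to be named, or otherwise up to 2 with the smallest p. Of 142 list entries, 14 were not matched. Alternatives were DESeq2 1.42.0, limma 3.58.1 (voom, or log2 TPM with a pseudocount of 0.1 or 1), RLE factors, other filters, fewer libraries, a replicate block, marker scores as covariates and each library left out.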

Additional observations from a re-analysis of the deposited data

How the results depend on the processing

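Over 26 alternatives and 6 comparisons, the number of the genes called was 0 in 155 of 156 fits. The exception was the fit of low-dose against stress tumours without low-dose replicate 1, which called 1 (Kit) among 1243 of 13637 genes, while all-gene calls ranged from 0 to 1243 over the alternatives. The count thus ranged from 0 to 1 over the libraries left out. Of 747 fold changes under an alternative, 48 changed sign, 23 of them in high-dose against stress tumours, and none of those 48 passed a test. The cause was not tested.

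With each library left out in turn, log2 fold changes ranged as follows. In low-dose against stress tumours, Tpsb2 ran from -1.76 to 0.20 and Hdc from -0.62 to 0.21. In high-dose against stress tumours, Cpa3 ran from -3.37 to 0.75, Tpsb2 from -1.87 to 1.28, Cma1 from -1.86 to 1.74 and Hdc from -0.22 to 0.60. In high-dose against low-dose tumours, Cpa3 ran from -0.39 to 2.55 and Tpsb2 from -0.59 to 1.61. In low-dose against control tumours, Cpa3 ran from -0.50 to 0.86. In high-dose against control tumours, Cpa3 ran from -0.52 to 2.89 and Kit from -0.029 to 0.28.

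Omissions of 2 kinds were added after the data were seen. Without both protease-rich libraries, low-dose against stress tumours gave 0.20 for Tpsb2 and 0.21 for Hdc, high-dose against stress 0.19 for Cma1, high-dose against low-dose -0.40 for Cpa3 and -0.60 for Tpsb2, and high-dose against control -0.51 for Cpa3 and -0.023 for Kit. Without the 3 muscle-rich libraries, high-dose against stress tumours gave 0.33 for Tpsb2, 0.15 for Cma1 and -0.18 for Hdc, and high-dose against low-dose -0.056 for Hdc.

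The other reversals lay in high-dose against stress tumours for limma-voom (Cma1 0.40, Hdc -0.034), log2(TPM + 0.1) (Cma1 0.20), the muscle score (Tpsb2 0.023, Cma1 0.019) and the skin score (Cpa3 0.31, Tpsb2 0.85, Cma1 1.22). The skin score also gave 0.042 for Hdc in low-dose against stress tumours. In low-dose against control tumours Cpa3 was 0.36 by limma-voom, 0.0057 with the replicate block, 0.039 on log2(TPM + 0.1) and 0.075 with the skin score, Cma1 was -0.013 with the muscle score and -1.17 with the fibroblast score, and Tpsb2 was -0.49 with the fibroblast score. In high-dose against control tumours the fibroblast score gave -0.60 for Cpa3, -0.0098 for Tpsb2 and -0.0094 for Kit.

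Whether the replicate numbers pair the libraries could not be decided, since libraries can share a number without being paired. The closest library of another group had the same number for 5 of 12. Of 18 same-number pairs, 3 had a correlation over 0.1, within a range of -0.451 to 0.415. With the replicate block 0 of the genes were called in each comparison, and Kit in low-dose against stress tumours stood at -1.01 (edgeR adjusted p 0.333). With few counts outside 2 libraries, depth limited Mcpt4, Fcer1a and Ms4a2 the most.
At a minimum count of 50 Kit alone was tested, and with only the 6 libraries compared Cpa3 or Cma1 fell below the filter in some comparisons, so these alternatives gave no value there.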
